A study of Mus musculus with 14 samples.

Results

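The mitosis and cytokinesis genes are 51 genes whose products carry a cell from the start of mitosis to the separation of its daughter cells. They were taken as a list of symbols, and all 51 had a probe set that the array annotation gives to that symbol alone, out of 19938 such genes on the array. Their RNA was measured in the plantaris, a fast calf muscle, of male C57BL/6J mice aged 25 months. Overload came from synergist ablation, the surgical removal of the gastrocnemius and soleus, after which the remaining muscle grows. Muscles were taken on days 0, 1, 3, 5, 7, 10 and 14 of overload, with 2 Affymetrix Mouse Gene 1.0 ST arrays for each day. One array of a day held pooled RNA of 6 left muscles and the other of 6 right muscles. The labels were taken to mean that both pools of a day share their animals, and each day is another set of animals. No array is labelled as a sham operation, so surgery and load cannot be told apart in a comparison with day 0. Values are log2 signals as deposited, and the 2 arrays of a day correlated across genes at r between 0.994 and 0.997. Muscle fibre markers, 10 genes such as Ckm and Acta1, averaged between 13.07 and 13.94 on all 14 arrays. They were not steady: the highest mean was that of the right array of day 0 and the lowest that of the right array of day 5.

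Mitosis begins when CDK1, bound to A- and B-type cyclins, is switched on. Chromosomes then condense, spindle microtubules attach to kinetochores built on centromeres, and the spindle checkpoint holds the cell back until every kinetochore is attached. The anaphase-promoting complex then releases the sister chromatids, and a contractile ring at the central spindle divides the cell. Adult muscle fibres are multinucleated and do not divide. In overloaded or injured muscle the dividing cells are mononuclear, among them satellite cells, fibro-adipogenic progenitors, endothelial cells and macrophages. Most genes of the list are made late in the cell cycle under a shared control, in which the DREAM and MuvB complexes act through an element called CHR, often with NF-Y bound to nearby CCAAT boxes, while FOXM1 and B-MYB activate the same genes.

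The start-site regions of the list are shown first because they carry these letters. RefSeq promoters (build GRCm38.p6, 250 bases before and 50 after the start) matched 41 of the 51 genes, with 46 promoters in all. No promoter was matched for Ccna2, Cdc25c, Foxm1, Aurkb, Pbk, Spc24, Tpx2, Dlgap5, Smc4 and Kif20a. The 6 regions below run from 150 bases before to 30 bases after the start, and capitals mark TTTGAA or TTCGAA (forms of the CHR) and CCAAT, on either strand. Cdk1, Ccnb2, Prc1 and Racgap1 stand for strong rises with TTTGAA at the start site, Bub1 for the other form, and Aurka for the gene whose course differed most from the rest.
Cdk1, chr10:69352883-69353062 (- strand): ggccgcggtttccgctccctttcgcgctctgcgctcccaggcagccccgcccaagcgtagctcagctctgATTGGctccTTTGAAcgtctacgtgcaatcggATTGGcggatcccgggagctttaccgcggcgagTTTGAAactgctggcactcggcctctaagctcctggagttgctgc
Ccnb2, chr9:70421525-70421704 (- strand): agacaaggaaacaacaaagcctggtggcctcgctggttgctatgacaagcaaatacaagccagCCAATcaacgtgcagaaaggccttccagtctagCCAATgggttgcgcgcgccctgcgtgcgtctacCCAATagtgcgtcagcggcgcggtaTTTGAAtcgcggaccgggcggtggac
Prc1, chr7:80294301-80294480 (+ strand): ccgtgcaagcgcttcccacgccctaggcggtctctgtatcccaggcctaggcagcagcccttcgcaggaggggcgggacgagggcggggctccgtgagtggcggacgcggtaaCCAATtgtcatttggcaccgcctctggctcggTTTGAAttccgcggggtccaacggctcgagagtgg
Racgap1, chr15:99651627-99651806 (- strand): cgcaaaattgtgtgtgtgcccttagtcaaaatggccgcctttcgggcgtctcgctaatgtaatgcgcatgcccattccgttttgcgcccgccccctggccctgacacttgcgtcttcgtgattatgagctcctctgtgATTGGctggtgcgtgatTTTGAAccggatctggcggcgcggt
Bub1, chr2:127831830-127832009 (- strand): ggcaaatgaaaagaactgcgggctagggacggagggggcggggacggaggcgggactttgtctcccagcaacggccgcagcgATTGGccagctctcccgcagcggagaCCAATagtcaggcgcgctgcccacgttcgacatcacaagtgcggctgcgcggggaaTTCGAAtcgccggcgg
Aurka, chr2:172370541-172370720 (- strand): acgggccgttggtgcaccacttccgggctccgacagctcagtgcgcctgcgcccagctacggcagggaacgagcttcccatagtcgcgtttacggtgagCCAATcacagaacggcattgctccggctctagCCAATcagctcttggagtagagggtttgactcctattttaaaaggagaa
Positions count from the start site, with bases before it negative. In Cdk1 the 2 TTTGAA matches begin at -71 and -15. In Ccnb2 a match begins at 5, with CCAAT beginning at -87, -54 and -21. In Aurka the match begins at 33, beyond the region printed. For Prc1 RefSeq lists 2 promoters, of which the first is shown.

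TTTGAA was held by 33 of the 46 promoters (71.7%, 30 genes), against 17.9% of all 32851 promoters. It began within 50 bases of the start in 29 of the 46 (63%), against 4.94% of all promoters. CCAAT was also held by 33 of the 46 (71.7%), against 37.4% of all promoters. Both sets of letters were held by 27 (58.7%), against 6.95% of all promoters. TTCGAA was held by 3 of the 46 (6.52%), against 1.56%. Letters found in E2F sites are rarer over all promoters, so their raw shares are not ranked against those of TTTGAA or CCAAT. Of the 46 promoters, 7 held TTGGCGC (15.2%, against 2.45% of all promoters). TTCGCGC was held by 2 (4.35%, against 1.59%) and TTCCCGC by 2 (4.35%, against 4.6%). The 43 promoters matched to 36 of the 43 DNA replication genes held CCAAT in 53.5%, TTCCCGC in 34.9%, TTGGCGC in 20.9%, TTCGCGC in 18.6% and TTTGAA in 16.3%. Of the 77 other mitosis genes 63 were matched, and of their 68 promoters 48.5% held TTTGAA and 66.2% held CCAAT. The windows of 50 bases were chosen after the matches were seen, and a match describes letters only. The 30 genes of the list with TTTGAA in a promoter had a median day 5 difference of 2.14 (from 0.39 to 2.93), and the 11 matched genes without it one of 1.72 (from 0.99 to 3.06), and the ranges overlapped.

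**Figure D1:**
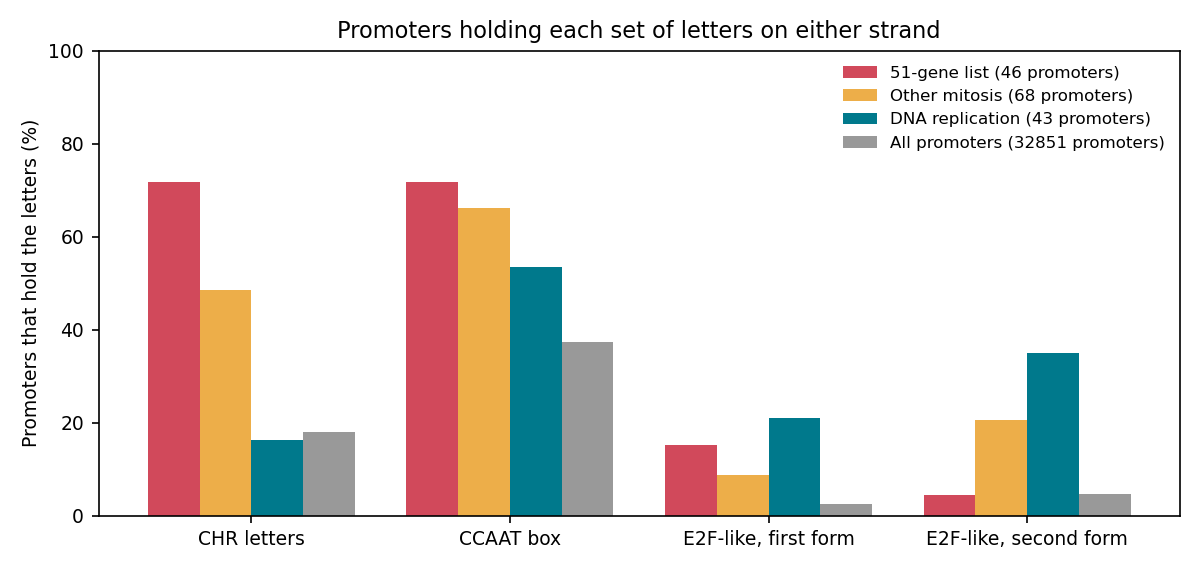
Share of RefSeq promoters (%) that hold the letters of the CHR (TTTGAA), of the CCAAT box and of E2F-like sites (first form TTGGCGC, second form TTCCCGC) on either strand, for the mitosis and cytokinesis genes, other mitosis genes, DNA replication genes and all promoters. The CHR letters stood in 71.7% of the promoters of the list, 16.3% of those of DNA replication genes and 17.9% of all promoters.

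The left and right pools of day 0 stood apart in these genes. On day 0 the left pool was higher for 42 of the 51 genes, by more than 0.5 for 22 of them, while only 1.88% of all genes were more than 0.5 higher on the left. The median right minus left difference of the 51 was -0.41 on day 0, with Mki67 at -1.42. It was -0.01 on day 1 and 0.06 on day 3. On days 5 and 7 the right pool was the higher one, for 48 and all 51 of the genes, with medians of 0.23 and 0.33, and on days 10 and 14 the medians were 0.02 and -0.05. Over the 7 days, with the day as a block, 0 of the 51 genes and 0 of all genes differed between right and left by limma at an adjusted p under 0.05. That test fits 1 right minus left difference over all days, so gaps of opposite sign offset each other. It cannot show a gap of a single day such as day 0. Markers of bone marrow and blood cells stood apart in the same direction on day 0. The mean of 8 granulocyte precursor genes (Mpo, Elane, Ngp and others) was 8.92 on the right and 9.78 on the left, with all 8 higher on the left. The 6 erythroid genes averaged 8.16 on the right and 8.87 on the left, and the 7 B cell genes 7.47 on the right and 7.85 on the left. The 11 macrophage genes averaged 8.78 on the right and 9.18 on the left, while the 8 satellite cell and myoblast genes averaged 9.62 on the right and 9.61 on the left. On days 1, 3, 5, 7, 10 and 14 the granulocyte precursor genes differed by -0.52, -0.36, 0.84, -0.34, 0.97 and 0.21 (mean right minus left). The medians of the 51 genes on those days were -0.01, 0.06, 0.23, 0.33, 0.02 and -0.05. Both day 0 means of the granulocyte precursor genes lay above every later array, whose means ran from 7.18 to 8.63. All 8 were called lower than day 0 on days 5, 10 and 14 (33.7%, 34.3% and 30.5% of all genes). The right pool of day 0 was thus high in these markers as well, which did not hold for the erythroid and B cell means. The part of bone marrow and blood cells in the gap of day 0 was not tested.

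**Figure D2:**
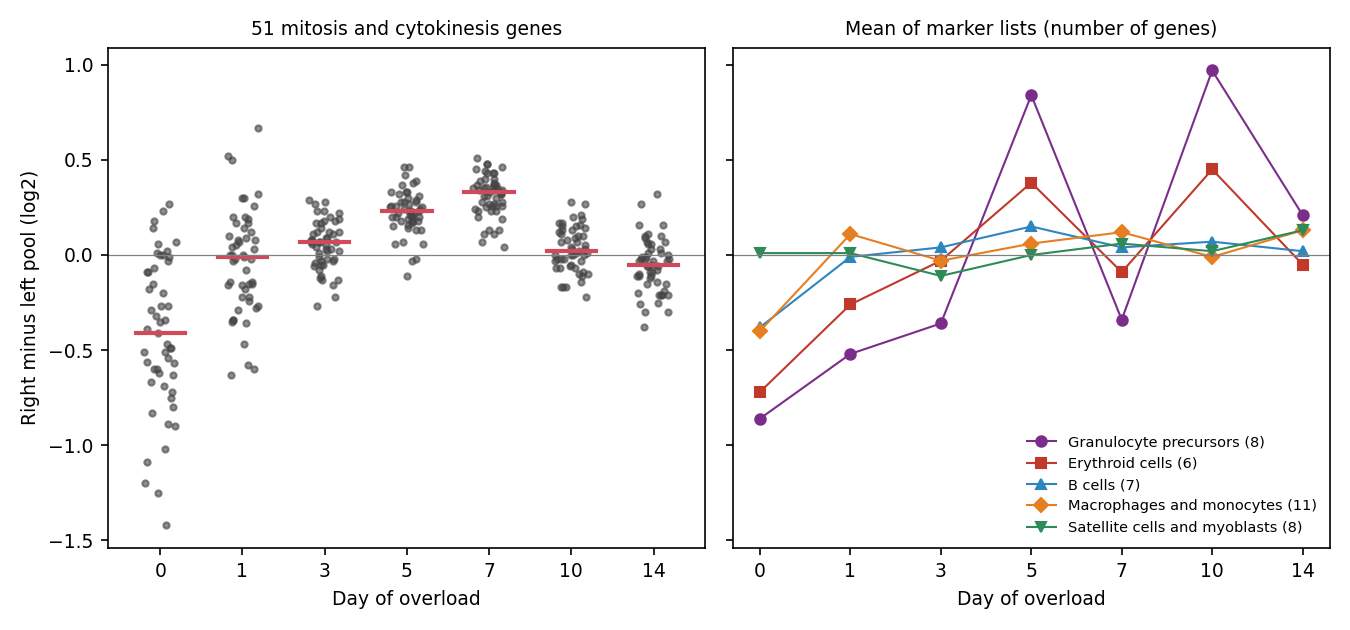
Right minus left pool (log2) on each day of overload, for the 51 genes (left panel, 1 point per gene, red bar at the median) and for the mean of 5 marker lists (right panel). The genes lie mostly below 0 on day 0 (median -0.41) and above 0 on days 5 and 7 (medians 0.23 and 0.33), and the granulocyte precursor markers are at -0.86 on day 0, 0.84 on day 5 and 0.97 on day 10.

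The 51 genes rose together between days 1 and 3, were highest on days 5 and 7 and had come part of the way down by day 14. Differences below are log2 differences between days with their standard error (n = 2 arrays per day), from limma over all 19938 genes with Benjamini-Hochberg adjusted p values called under 0.05. Every one of the 51 differed among the 7 days by the moderated F test (largest adjusted p = 6.0e-05), as did 79.5% of all genes. Against day 0, 0 of the 51 were higher on day 1 (22.3% of all genes were), and then 51 on day 3 (24.1%), 51 on day 5 (26.4%), 51 on day 7 (26.6%), 48 on day 10 (25.9%) and 35 on day 14 (22.9%). The median difference of the 51 was -0.17, 1.76, 2.07, 2.06, 1.41 and 0.56 on those days, while the median of all genes lay between -0.14 and 0.04. At least 2-fold higher were 45 genes on day 3 (7.59% of all genes), 46 on day 5 (8.79%), 48 on day 7 (8.57%) and 40 on day 10 (8.1%). Both arrays lay above both of day 0 for 51 of the 51 on day 3 (31.6% of all genes), day 5 (32.5%) and day 7 (32.6%), for 50 on day 10 (32.1%), for 39 on day 14 (30%) and for 1 on day 1 (36.5%). In pooled muscle RNA, more dividing cells and more of these RNAs per cell cannot be told apart.

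**Figure D3:**
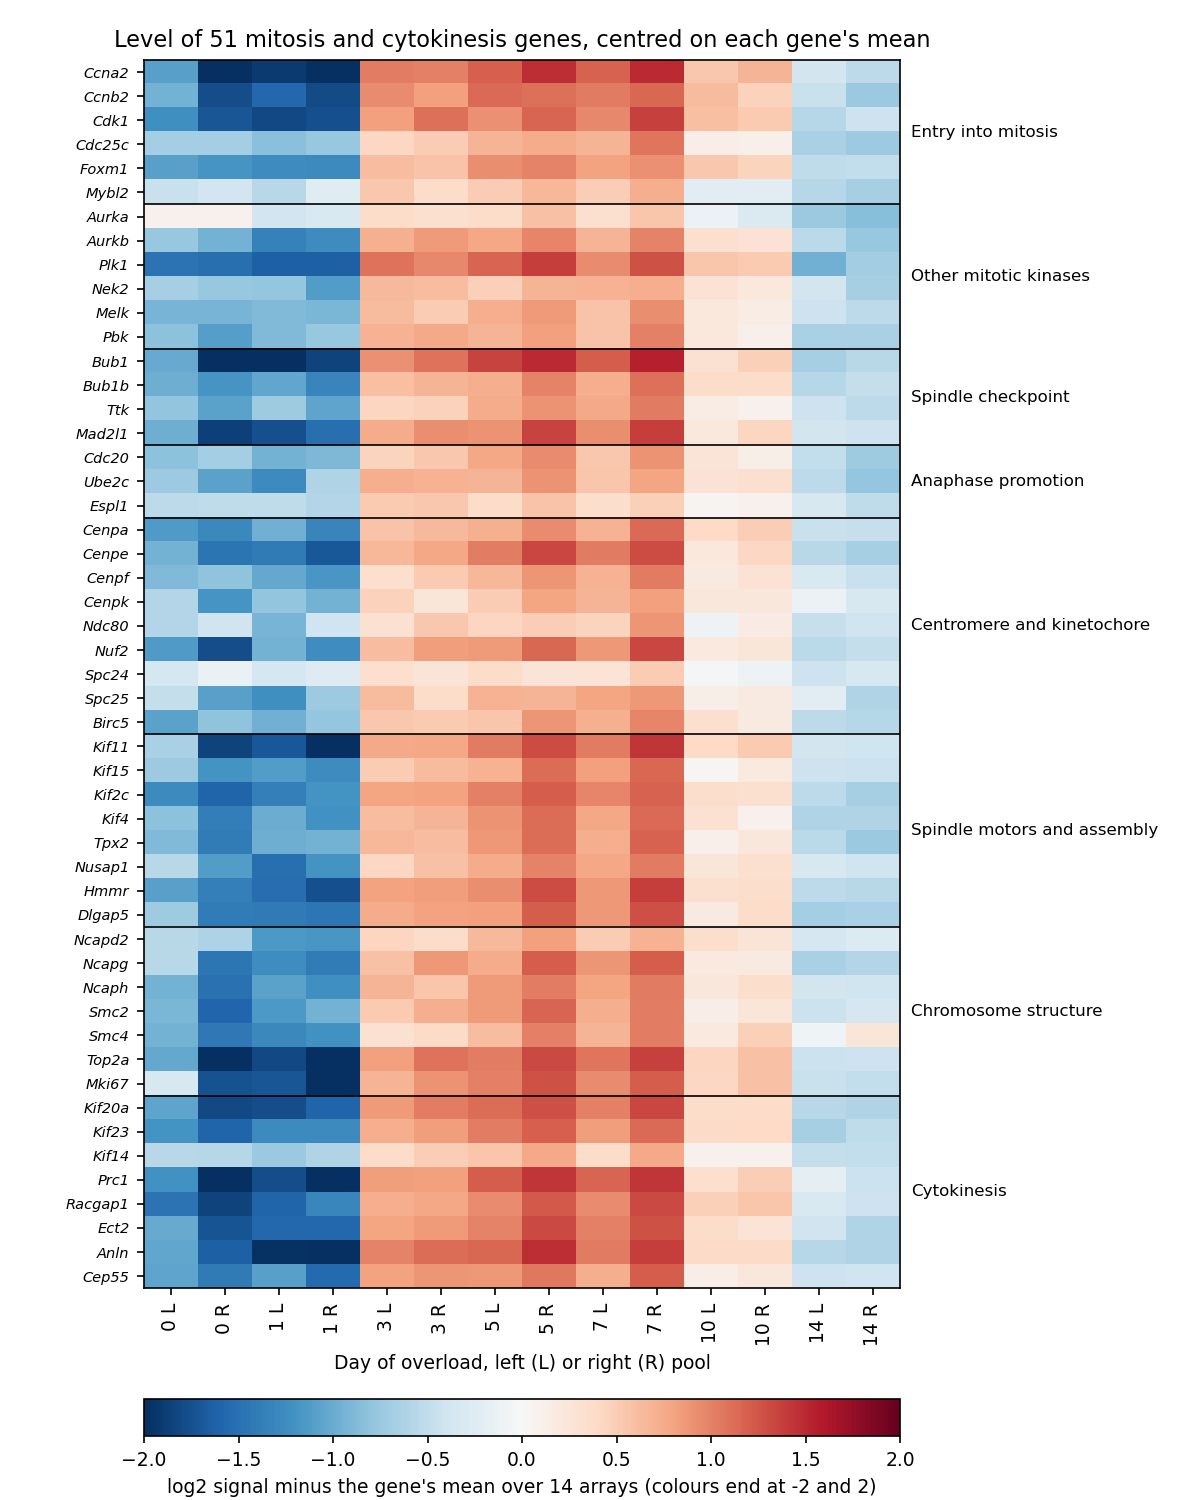
Level of the 51 genes (rows, grouped by role) on the 14 arrays (columns, day of overload with left and right pool), as log2 signal minus the gene's mean over all arrays. Red stands for above and blue for below that mean, and nearly every row is blue on days 0 and 1, red on days 3 to 7, paler on day 10 and pale blue on day 14.

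Every comparison of the 51 genes with day 0 was therefore repeated without each pool of day 0. For the marker, other mitosis and DNA replication genes, differences from day 0 are given with all arrays only. Without the left pool, the median difference of the 51 genes then became 0.01 on day 1, 2.03 on day 3, 2.38 on day 5, 2.34 on day 7, 1.63 on day 10 and 0.78 on day 14. The counts of genes higher than day 0 became 2, 50, 51, 51, 47 and 39. Without the right pool, the medians were -0.27, 1.54, 1.83, 1.79, 1.11 and 0.37 on the same days and the counts 0, 50, 51, 51, 48 and 25. The sizes of day 14 thus depended on which day 0 pool was kept. These fits had 1 array on day 0. The share of all genes called in them is not given, here or below, so their counts have no background to be read against. Of the 35 genes higher on day 14, 34 stayed called without the left pool, and Dlgap5, Mki67, Ncapg, Pbk and Spc25 were added. Against day 1, whose pools did not stand apart in this way, all 51 genes were higher on day 3 (19.5% of all genes) and on day 5 (23.6%).

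Of the genes that start mitosis, Ccna2 had the largest day 5 difference and Mybl2 the smallest. Ccna2 encodes cyclin A2, which binds CDK2 in S phase and CDK1 before mitosis. Its log2 signal on the left and right arrays was 8.86 and 7.77 on day 0, 8.02 and 7.39 on day 1, 10.97 and 10.95 on day 3, 11.14 and 11.42 on day 5, 11.12 and 11.44 on day 7, 10.48 and 10.62 on day 10 and 9.57 and 9.42 on day 14. Both arrays of each day from 3 to 14 were above both of day 0, and the low point was day 1 on the right. The day 5 difference from day 0 was 2.96 ± 0.28, which is 7.8-fold (adjusted p = 1.6e-06), and that of day 14 was 1.18 ± 0.28 (adjusted p = 0.0039). Cdk1, the kinase that drives entry into mitosis, stood at 8.63 and 8.14 on day 0, 8.05 and 8.10 on day 1, 10.67 and 10.96 on day 3, 10.77 and 11.01 on day 5, 10.82 and 11.22 on day 7, 10.45 and 10.38 on day 10 and 9.28 and 9.44 on day 14. It was 2.50 ± 0.17 higher on day 5 (adjusted p = 7.7e-08) and 0.97 ± 0.17 higher on day 14 (adjusted p = 4.1e-04). Ccnb2, which encodes cyclin B2, was 2.47 ± 0.20 above day 0 on day 5. Cdc25c, the phosphatase that activates CDK1, was 1.40 ± 0.11 higher on day 5 and at 0.00 ± 0.11 on day 14 (adjusted p = 0.9968).

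The transcription factor genes of the list took separate courses. Foxm1, whose product activates many genes of mitosis, was at 7.50 and 7.41 on day 0, 7.33 and 7.31 on day 1, 9.20 and 9.16 on day 3, 9.52 and 9.58 on day 5, 9.40 and 9.51 on day 7, 9.12 and 9.03 on day 10 and 8.08 and 8.09 on day 14. Its arrays agreed closely and none of days 3 to 14 overlapped with day 0. Foxm1 was 2.10 ± 0.07 above day 0 on day 5 (adjusted p = 6.4e-10). Between days 3 and 5 it rose by 0.37 ± 0.07 (adjusted p = 0.0082), as 1 of 2 genes called (4.68% of all genes). These 2 calls depended on single arrays. Both day 5 arrays lay above both day 3 arrays for 37 of the 51, so genes not called were not thereby steady. Mybl2 encodes B-MYB, which joins the MuvB complex in S and G2 phase. Its signal was 8.51 and 8.57 on day 0, 8.40 and 8.70 on day 1, 9.48 and 9.32 on day 3, 9.45 and 9.61 on day 5, 9.44 and 9.67 on day 7, 8.72 and 8.73 on day 10 and 8.38 and 8.29 on day 14. It was 0.99 ± 0.11 higher on day 5 (adjusted p = 7.8e-06), but 0.19 ± 0.11 on day 10 (adjusted p = 0.1639) and -0.20 ± 0.11 on day 14 (adjusted p = 0.1525), where both its arrays were below both of day 0. All 6 genes of mitotic entry were higher on days 3, 5 and 7 (24.1% to 26.6% of all genes), and 4 of the 6 on day 14 (22.9%).

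Of the other mitotic kinases, Plk1 rose most and Aurka least. Plk1 encodes polo-like kinase 1, which acts at centrosomes, kinetochores and the central spindle. Its signal was 7.99 and 7.96 on day 0, 7.83 and 7.83 on day 1, 10.56 and 10.43 on day 3, 10.64 and 10.85 on day 5, 10.42 and 10.75 on day 7, 10.02 and 10.00 on day 10 and 8.51 and 8.78 on day 14. The pools of day 0 differed by little here, and the day 5 difference was 2.77 ± 0.12 (6.81-fold, adjusted p = 2.5e-09). Between days 10 and 14 Plk1 fell, with a difference of -1.37 ± 0.12 (adjusted p = 1.9e-04). Aurkb, the kinase of the chromosomal passenger complex, stood at 9.17 and 8.99 on day 0, 8.59 and 8.68 on day 1, 10.65 and 10.79 on day 3, 10.71 and 10.91 on day 5, 10.61 and 10.93 on day 7, 10.25 and 10.23 on day 10 and 9.39 and 9.18 on day 14. It was 1.74 ± 0.12 higher on day 5 (adjusted p = 9.8e-08) and lower on day 1 (-0.44 ± 0.12, adjusted p = 0.0087), where the difference without the left pool of day 0 was -0.35 ± 0.14 and was not called.

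Aurka encodes Aurora A, the kinase of centrosomes and spindle poles, and its course was the least like the others. Its signal was 8.95 and 8.95 on day 0, 8.49 and 8.56 on day 1, 9.24 and 9.19 on day 3, 9.23 and 9.46 on day 5, 9.19 and 9.43 on day 7, 8.75 and 8.58 on day 10 and 8.13 and 8.02 on day 14. The pools of day 0 were equal, and both arrays of days 1, 10 and 14 were below them. Genes with both arrays below both of day 0 numbered 1 of the 51 on day 10 (49.8% of all genes) and 2 on day 14 (47%), Aurka on both days and Mybl2 on day 14. Of the 51, Aurka was the 1 gene called lower on day 10 (34.3% of all genes) and on day 14 (30.5%). It was lower than day 0 on day 1 (-0.43 ± 0.10, adjusted p = 0.0040), day 10 (-0.29 ± 0.10, adjusted p = 0.0296) and day 14 (-0.88 ± 0.10, adjusted p = 1.8e-05). The fall of day 14 was 1.84-fold, and the fall of day 10 was not called without either pool of day 0 or the right pool of day 10. Without the left pool of day 0 the day 10 difference was -0.28 ± 0.13, about as large as with all arrays. On days 3, 5 and 7 Aurka was 0.26 ± 0.10, 0.39 ± 0.10 and 0.36 ± 0.10 above day 0 (adjusted p = 0.0484, 0.0057 and 0.0088), and none of these 3 rises was called after quantile normalization. The rise of day 3 was also not called when any single array of day 0 or day 3 was left out, although its size without the left pool of day 0 was the same, 0.26 ± 0.13, and those of days 5 and 7 not without the right pool of that day, at 0.27 and 0.24. Across the 14 arrays Aurka correlated with the mean of the other 50 genes at r = 0.661, the lowest of the list, against a median of 0.987. The centrosome kinase gene Nek2 and the kinase genes Melk and Pbk were 1.30, 1.72 and 1.71 above day 0 on day 5. On day 14, 2 of these 6 kinases, Plk1 and Melk, were called higher (22.9% of all genes). Both arrays of day 14 lay above both of day 0 for 4 of the 6 (30% of all genes).

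**Figure D4:**
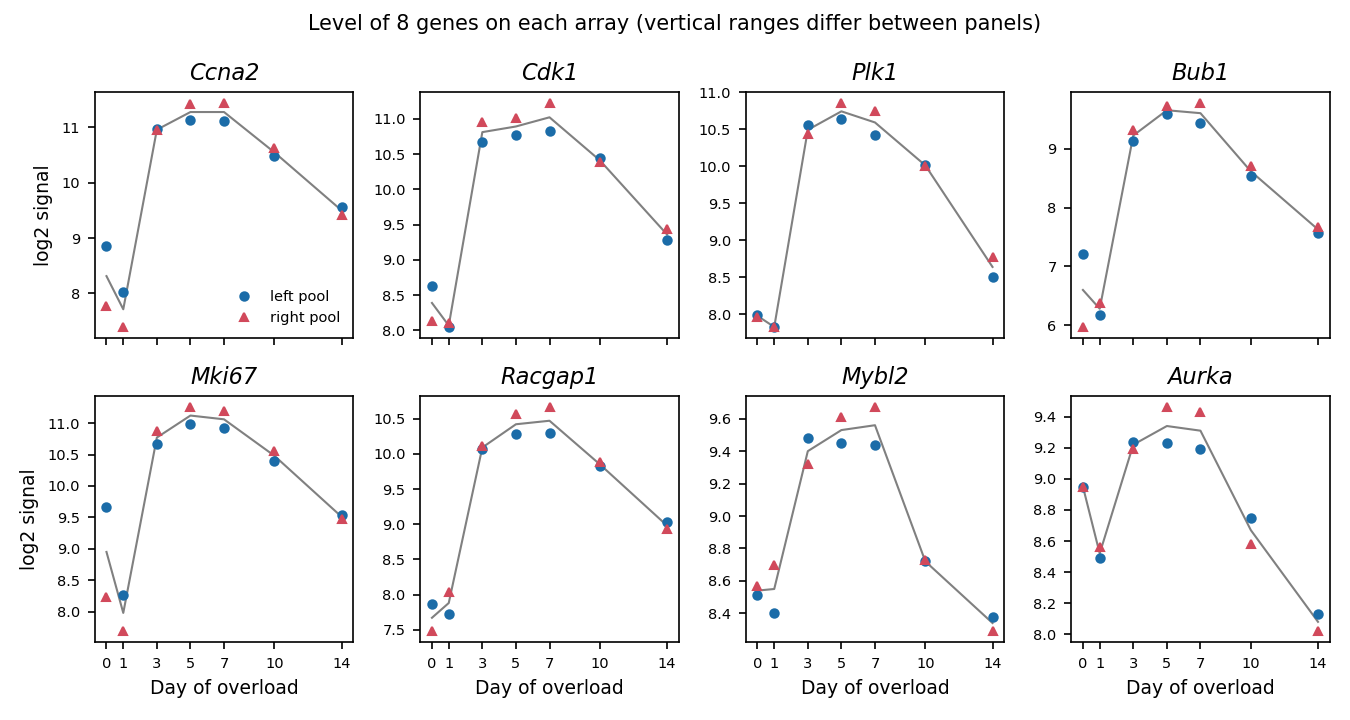
Log2 signal of 8 genes on each day of overload, with left pools as circles, right pools as triangles and the line through the mean of both. Ccna2, Cdk1, Plk1, Bub1, Mki67 and Racgap1 are highest on days 5 and 7 and still above both day 1 pools on day 14, while Mybl2 and Aurka end below both day 0 pools.

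The 4 spindle checkpoint genes were all higher from day 3 through day 14 (22.9% to 26.6% of all genes). Bub1, a kinase that recruits checkpoint proteins to the kinetochore, had the largest day 5 difference of the 51, except without the right pool of day 0, where Plk1 had it. Its signal was 7.22 and 5.97 on day 0, 6.18 and 6.38 on day 1, 9.14 and 9.32 on day 3, 9.59 and 9.73 on day 5, 9.44 and 9.78 on day 7, 8.54 and 8.71 on day 10 and 7.57 and 7.68 on day 14. The day 0 pools lay far apart, yet both were below every array of days 3 to 14. The day 5 difference was 3.06 ± 0.28, or 8.36-fold (adjusted p = 1.2e-06). Mad2l1 encodes MAD2, which blocks the activator of the anaphase-promoting complex. It stood at 8.64 and 7.74 on day 0, 7.85 and 8.11 on day 1, 10.36 and 10.55 on day 3, 10.51 and 10.97 on day 5, 10.55 and 10.99 on day 7, 9.83 and 10.04 on day 10 and 9.25 and 9.20 on day 14, and its day 5 difference was 2.55 ± 0.25 (adjusted p = 2.1e-06). Ttk, the checkpoint kinase MPS1, rose least of the 4. Its signal was 6.35 and 6.08 on day 0, 6.43 and 6.09 on day 1, 7.57 and 7.60 on day 3, 7.89 and 8.04 on day 5, 7.90 and 8.18 on day 7, 7.29 and 7.23 on day 10 and 6.73 and 6.62 on day 14, with a day 5 difference of 1.75 ± 0.13 (adjusted p = 2.0e-07). Bub1b, which encodes BUBR1, was 1.94 ± 0.13 higher on day 5.

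The 3 genes of anaphase promotion were higher on days 3, 5, 7 and 10 (24.1% to 26.6% of all genes), and none was called on day 14 (22.9% higher). Cdc20 activates the anaphase-promoting complex, Ube2c is its ubiquitin-conjugating enzyme and Espl1 encodes separase, the protease that opens cohesin. Cdc20 stood at 7.98 and 8.12 on day 0, 7.86 and 7.90 on day 1, 9.25 and 9.34 on day 3, 9.57 and 9.75 on day 5, 9.33 and 9.70 on day 7, 9.06 and 8.92 on day 10 and 8.30 and 8.09 on day 14. Ube2c stood at 8.99 and 8.65 on day 0, 8.45 and 9.12 on day 1, 10.45 and 10.42 on day 3, 10.39 and 10.61 on day 5, 10.28 and 10.51 on day 7, 10.01 and 10.04 on day 10 and 9.19 and 8.94 on day 14. Espl1 stood at 7.58 and 7.60 on day 0, 7.59 and 7.51 on day 1, 8.62 and 8.64 on day 3, 8.47 and 8.68 on day 5, 8.45 and 8.58 on day 7, 8.15 and 8.19 on day 10 and 7.78 and 7.59 on day 14. All 3 were above both day 0 arrays on days 3, 5, 7 and 10 and overlapped with day 0 on day 14. Their day 5 differences were 1.61 ± 0.12, 1.68 ± 0.19 and 0.99 ± 0.09 (adjusted p = 2.1e-07, 6.3e-06 and 1.2e-06). On day 14 they were 0.15 ± 0.12, 0.24 ± 0.19 and 0.09 ± 0.09, and none passed (adjusted p = 0.3100, 0.2803 and 0.3919). Espl1 was the 1 gene of the list with its highest mean on day 3.

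The 9 genes of centromere and kinetochore rose by very unequal amounts, also within a complex. The NDC80 complex joins kinetochores to microtubules and has 4 subunits. Nuf2 stood at 6.87 and 6.24 on day 0, 7.06 and 6.77 on day 1, 8.62 and 8.85 on day 3, 8.86 and 9.15 on day 5, 8.87 and 9.35 on day 7, 8.20 and 8.25 on day 10 and 7.47 and 7.53 on day 14 and was 2.45 ± 0.20 higher on day 5 (adjusted p = 4.1e-07). Spc24 stood at 7.35 and 7.58 on day 0, 7.35 and 7.45 on day 1, 8.04 and 7.96 on day 3, 8.07 and 7.96 on day 5, 7.99 and 8.22 on day 7, 7.67 and 7.60 on day 10 and 7.30 and 7.39 on day 14 and was 0.55 ± 0.10 higher on day 5 (adjusted p = 4.6e-04). Every day 5 array of both genes was above day 0, but on day 14 Spc24 overlapped with day 0 (-0.12 ± 0.10, adjusted p = 0.3228) while Nuf2 was 0.95 ± 0.20 higher (adjusted p = 0.0018). The other subunits, Ndc80 and Spc25, were 0.95 ± 0.17 and 1.47 ± 0.20 higher on day 5, and neither passed on day 14. Differences of separate probe sets do not share a scale of response, so the size of a rise is compared here only as measured.

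Cenpe, the kinesin that moves chromosomes to the spindle equator, stood at 6.92 and 6.41 on day 0, 6.45 and 6.18 on day 1, 8.53 and 8.64 on day 3, 8.89 and 9.21 on day 5, 8.91 and 9.17 on day 7, 8.08 and 8.28 on day 10 and 7.32 and 7.20 on day 14. Its day 5 difference was 2.39 ± 0.17 (adjusted p = 1.2e-07). Cenpa, the histone H3 variant that marks the centromere, was 2.03 ± 0.14 higher on day 5 and 0.76 ± 0.14 on day 14 (adjusted p = 9.0e-04). Cenpf was 1.61, Cenpk 1.53 and Birc5, which encodes survivin of the chromosomal passenger complex, 1.66 above day 0 on day 5. Cenpf was also 1 of 4 genes called higher on day 7 than on day 3, with Cdc25c, Foxm1 and Ttk. Its difference was 0.43 ± 0.12 (adjusted p = 0.0279). The share of all genes was 9.71%, near that of the list, and the 4 calls depended on single arrays.

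Spindle genes rose together, with all 8 at least 2-fold higher on days 3, 5, 7 and 10. The shares of all genes were 7.59%, 8.79%, 8.57% and 8.1% on those days. Kif2c encodes MCAK, a kinesin that takes microtubule ends apart. Its signal was 6.86 and 6.54 on day 0, 6.77 and 6.94 on day 1, 8.93 and 8.95 on day 3, 9.15 and 9.35 on day 5, 9.12 and 9.32 on day 7, 8.49 and 8.46 on day 10 and 7.62 and 7.47 on day 14, and its day 5 difference was 2.55 ± 0.12 (adjusted p = 4.4e-09). Kif11, the kinesin that pushes spindle poles apart, stood at 8.24 and 7.04 on day 0, 7.19 and 6.59 on day 1, 9.65 and 9.66 on day 3, 9.93 and 10.19 on day 5, 9.92 and 10.31 on day 7, 9.29 and 9.41 on day 10 and 8.52 and 8.49 on day 14. The left pool of day 0 lay well above the right for Kif11, and the day 5 difference was 2.42 ± 0.30 (adjusted p = 1.6e-05). Nusap1, which bundles spindle microtubules, had the smallest day 5 difference of the 8. Its signal was 7.83 and 7.26 on day 0, 6.87 and 7.19 on day 1, 8.80 and 8.97 on day 3, 9.13 and 9.38 on day 5, 9.16 and 9.42 on day 7, 8.62 and 8.70 on day 10 and 8.06 and 7.98 on day 14, 1.71 ± 0.17 higher on day 5 (adjusted p = 2.5e-06) and lower on day 1 (-0.51 ± 0.17, adjusted p = 0.0264). Without the left pool of day 0 the day 1 difference was -0.22 ± 0.15 and was not called. The microtubule-binding proteins Tpx2, Hmmr and Dlgap5 were 2.14, 2.34 and 2.07 above day 0 on day 5, and the kinesins Kif4 and Kif15 2.11 and 1.87. On day 14 the 8 lay between 0.39 and 0.87 above day 0, and 7 passed (22.9% of all genes were higher).

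Genes of chromosome structure held the gene with the most of its rise left on day 14. Top2a encodes topoisomerase II alpha, which untangles sister DNA. Its signal was 8.10 and 7.08 on day 0, 7.31 and 7.13 on day 1, 9.93 and 10.20 on day 3, 10.14 and 10.44 on day 5, 10.18 and 10.49 on day 7, 9.55 and 9.70 on day 10 and 8.69 and 8.70 on day 14, and its day 5 difference was 2.70 ± 0.25 (adjusted p = 1.2e-06). A dimmer probe set of Top2a lay between 4.10 and 4.85 on all arrays and was not used for the gene. Mki67, the Ki-67 protein that coats mitotic chromosomes and is a common marker of dividing cells, stood at 9.66 and 8.24 on day 0, 8.27 and 7.69 on day 1, 10.66 and 10.88 on day 3, 10.98 and 11.25 on day 5, 10.92 and 11.19 on day 7, 10.40 and 10.56 on day 10 and 9.54 and 9.48 on day 14. Its left pool of day 0 was above both pools of day 14, and its right pool was below them. Mki67 was 2.17 ± 0.33 higher on day 5 (adjusted p = 1.2e-04) and 0.56 ± 0.33 on day 14 (adjusted p = 0.1735), a difference that was 1.27 and passed without the left pool of day 0.

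Condensin folds mitotic chromosomes, with Smc2 and Smc4 as its ATPase core. Smc2 stood at 7.45 and 6.78 on day 0, 7.23 and 7.42 on day 1, 8.89 and 9.09 on day 3, 9.22 and 9.53 on day 5, 9.09 and 9.39 on day 7, 8.51 and 8.61 on day 10 and 7.94 and 8.04 on day 14 and was 2.26 ± 0.19 higher on day 5 (adjusted p = 4.5e-07). Smc4 was 1.99 ± 0.18 higher on day 5 and 1.26 ± 0.18 on day 14 (adjusted p = 1.1e-04), so that 63.4% of its day 5 log2 difference remained, against a median of 28.2% over the 51 genes. Of the condensin I subunits, Ncapd2 stood at 8.94 and 8.87 on day 0, 8.34 and 8.33 on day 1, 9.92 and 9.86 on day 3, 10.13 and 10.31 on day 5, 10.00 and 10.19 on day 7, 9.84 and 9.74 on day 10 and 9.15 and 9.22 on day 14. It was lower on day 1 (-0.57 ± 0.09, adjusted p = 1.6e-04), with both arrays below both of day 0, and this call held without either pool of day 0. Ncapd2 was 1.32 ± 0.09 higher on day 5, Ncapg 1.98 ± 0.23 and Ncaph 2.16 ± 0.15.

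Cytokinesis genes had the highest median of the 8 roles on days 3, 5 and 7. Prc1, which bundles the microtubules of the central spindle, stood at 7.15 and 6.35 on day 0, 6.60 and 6.26 on day 1, 9.20 and 9.19 on day 3, 9.57 and 9.80 on day 5, 9.53 and 9.79 on day 7, 8.71 and 8.86 on day 10 and 8.19 and 7.93 on day 14. The day 5 difference was 2.93 ± 0.21 (7.64-fold, adjusted p = 1.5e-07) and the day 14 difference 1.30 ± 0.21 (adjusted p = 2.6e-04). Racgap1 encodes the partner of the kinesin Kif23 in centralspindlin, which positions the contractile ring. It stood at 7.87 and 7.48 on day 0, 7.73 and 8.03 on day 1, 10.07 and 10.11 on day 3, 10.28 and 10.56 on day 5, 10.29 and 10.66 on day 7, 9.82 and 9.89 on day 10 and 9.03 and 8.93 on day 14, with no array of days 3 to 14 below 8.93 and no array of day 0 above 7.87. Racgap1 was 2.75 ± 0.15 higher on day 5 (adjusted p = 1.8e-08) and 1.31 ± 0.15 higher on day 14 (adjusted p = 1.8e-05). Kif23 itself was 2.51 ± 0.13 higher on day 5 and 0.82 ± 0.13 on day 14.

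Anln encodes anillin, a scaffold of the contractile ring. Its signal was 8.08 and 7.48 on day 0, 7.14 and 6.98 on day 1, 10.11 and 10.23 on day 3, 10.26 and 10.59 on day 5, 10.15 and 10.50 on day 7, 9.50 and 9.50 on day 10 and 8.54 and 8.51 on day 14. Both day 1 arrays were below day 0 (-0.72 ± 0.17, adjusted p = 0.0043), at -0.42 ± 0.16 and not called without the left pool of day 0, and the difference between day 3 and day 1 was 3.11 ± 0.17 (adjusted p = 1.3e-07). Ect2, which activates RhoA at the division site, was 2.52 ± 0.19 higher on day 5, Cep55 of the final abscission 2.20 ± 0.17 and the kinesin gene Kif20a 2.63 ± 0.19. Kif14 rose least of the 8. It stood at 6.83 and 6.82 on day 0, 6.64 and 6.78 on day 1, 7.76 and 7.88 on day 3, 7.94 and 8.14 on day 5, 7.76 and 8.14 on day 7, 7.48 and 7.48 on day 10 and 6.91 and 6.89 on day 14, 1.21 ± 0.11 above day 0 on day 5 (adjusted p = 1.6e-06) and 0.07 ± 0.11 on day 14 (adjusted p = 0.6214). A second, dimmer probe set of Kif14 lay between 5.01 and 5.43 on all arrays.

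**Figure D5:**
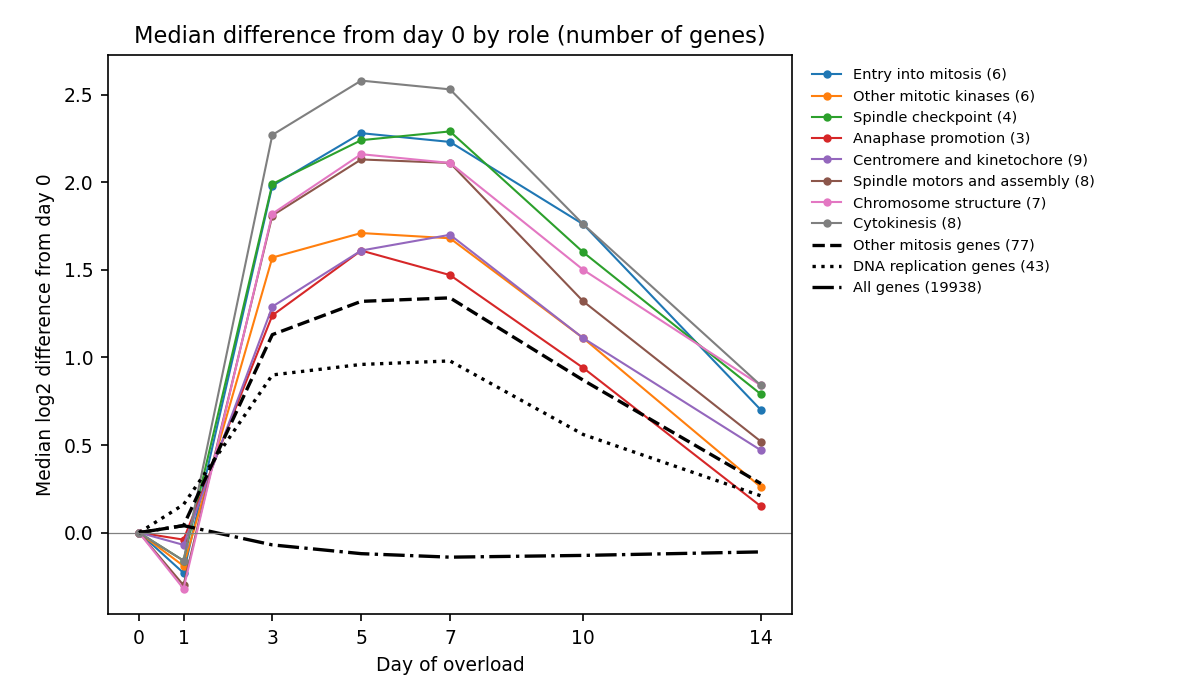
Median log2 difference from day 0 on each day of overload for the 8 roles of the mitosis and cytokinesis genes (coloured lines), for other mitosis genes, DNA replication genes and all genes (black lines), with the number of genes in brackets. Cytokinesis genes reach 2.58 on day 5, the kinetochore and anaphase genes 1.61, and all genes -0.12.

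Between successive days the list moved in 3 steps. From day 1 to day 3 all 51 genes rose (19.5% of all genes), by a median of 1.82, with Ccna2 highest at 3.25 ± 0.28 and Spc24 lowest at 0.60 ± 0.10. From day 3 to day 5, 2 of the 51 rose (4.68% of all genes), Foxm1 and Ncapd2, a share near that of all genes, and the median was 0.28. Both day 5 arrays lay above both day 3 arrays for 37 of the 51 (23.4% of all genes). The count of 2 was 0 without the right pool of day 3 or of day 5. From day 5 to day 7, 0 rose and 0 fell (0.401% and 0.627% of all genes), with a median of 0.00. The highest mean was on day 7 for 26 genes and on day 5 for 24, and no gene was called between these 2 days. From day 7 to day 10, 23 of the 51 fell (1% of all genes) and the median was -0.63. All 51 had both day 10 arrays below both day 7 arrays, as had 24.3% of all genes. This count of 23 depended on single arrays: it was 0 without the right pool of day 7, 1 without the left pool of day 10, 0 without its right pool and 38 without the left pool of day 0. From day 10 to day 14, 37 fell (5.11% of all genes) with a median of -0.80, and 50 had both arrays lower (27.6%). The count was 21 without the left pool of day 10, 16 without its right pool and 21 without the right pool of day 14. Between day 14 and day 5 directly, all 51 were lower on day 14 (14% of all genes), by a median of -1.44.

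Day 1 showed no rise of the list. Against day 0, 6 of the 51 were lower (22.6% of all genes): Mki67, Anln, Ncapd2, Nusap1, Aurkb and Aurka. Without the left pool of day 0 only Ncapd2 and Aurka were lower, and Nuf2 and Smc2 were higher. Without the right pool of day 0, 20 were lower. Both day 1 arrays lay below both of day 0 for 15 of the 51 (31.3% of all genes). Macrophage markers were already up on that day, with 10 of 11 higher by a median of 1.76, and all 8 neutrophil markers were higher by a median of 2.62. Of all genes, 22.3% were higher on day 1. On day 5, 11 of 11 macrophage markers were higher (median 2.78), 6 of 8 satellite cell and myoblast markers (median 0.70) and 5 of 7 fibroblast markers (median 0.99). Of 8 endothelial markers, 5 were higher and 2 lower on day 5 (median 0.53). So were 5 of 8 neutrophil markers higher (1 lower), 4 of 6 smooth muscle and pericyte markers (2 lower) and 3 of 6 T cell markers. Called lower were 9 of 10 muscle fibre, all 8 granulocyte precursor and 4 of 7 B cell markers. The erythroid and keratinocyte lists had 2 of 6 lower each, and the 4 Schwann cell markers 2 lower and 1 higher. The array-wide shares for these day 5 counts were 26.4% (higher) and 33.7% (lower). On day 14 all 11 macrophage markers were still higher, by 0.96 to 2.64, and the fibroblast median was 1.61, while that of the 51 genes was 0.56. On that day 4 of 6 T cell markers (median 0.89), 5 of 6 keratinocyte markers (median 0.78) and 5 of 8 endothelial markers (median 0.46) were also higher. The share of all genes higher on day 14 was 22.9%. Lower on day 14 were all 8 granulocyte precursor markers (median -1.49), 5 of 6 erythroid, 5 of 8 neutrophil and 4 of 7 B cell markers. Also lower were 4 of the 10 muscle fibre markers, 1 endothelial marker and 2 of 4 Schwann cell markers, of which 1 was higher. The share of all genes lower on day 14 was 30.5%. Which of these cells held the RNAs of the list was not tested.

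On day 14, 35 of the 51 genes were still higher (22.9% of all genes), 1 was lower (30.5%) and 15 were not called. All 4 checkpoint genes, 7 of 8 spindle and 7 of 8 cytokinesis genes passed, as did 6 of 9 kinetochore, 5 of 7 chromosome, 4 of 6 entry, 2 of 6 kinase and 0 of 3 anaphase genes. At least 2-fold higher were 7 genes (6.06% of all genes): Racgap1, Prc1, Smc4, Ccna2, Top2a, Mad2l1 and Bub1. This count was 20 without the left pool of day 0 and 2 without its right pool. The genes not called were Cdc25c, Mybl2, Aurkb, Nek2, Pbk, Cdc20, Ube2c, Espl1, Ndc80, Spc24, Spc25, Dlgap5, Ncapg, Mki67 and Kif14, between -0.20 and 0.56.

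Of the 77 other mitosis genes, 19 were higher and 7 lower than day 0 on day 1, with a median of 0.04, where 22.3% and 22.6% of all genes were called. On day 5, 64 were higher and 2 lower (26.4% and 33.7% of all genes), with a median of 1.32. On day 14, 35 were higher and 2 lower (22.9% and 30.5% of all genes), with a median of 0.28. Their difference from the 51 was not tested. Differences of these genes from day 0 are not given without either day 0 pool. The left and right pools of day 0 were at 8.27 and 7.18 for Cks2, but at 10.02 and 10.00 for Smc3. The largest day 5 differences were those of Cks2, a CDK1-binding protein (2.69 ± 0.26), Ska3 of the kinetochore (2.55 ± 0.17) and Sgo2a, a shugoshin that protects cohesin (2.41 ± 0.11). The smallest were those of Pttg1, Stag2 and Smc3. Pttg1 encodes securin, the inhibitor of separase, and its signal was 10.61 and 10.72 on day 0, 9.78 and 9.56 on day 1, 9.45 and 9.38 on day 3, 9.25 and 9.07 on day 5, 9.26 and 9.21 on day 7, 9.48 and 9.36 on day 10 and 9.38 and 9.58 on day 14. Each later array was below both of day 0, with differences of -0.99 ± 0.10 on day 1, -1.50 ± 0.10 on day 5 and -1.18 ± 0.10 on day 14 (adjusted p = 4.8e-06, 7.8e-08 and 1.2e-06). Of the cohesin genes, Stag2 differed on day 5 by -0.31 ± 0.10 (adjusted p = 0.0131), and Smc3 by -0.01 ± 0.10 (adjusted p = 0.9148).

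The 43 DNA replication genes had medians of 0.16 on day 1, 0.90 on day 3, 0.96 on day 5, 0.98 on day 7, 0.56 on day 10 and 0.21 on day 14. On day 1, 11 were higher, a share near that of all genes (22.3%), and 6 were lower, a smaller share than that of all genes (22.6%). On day 5, 40 were higher and 2 lower (26.4% and 33.7% of all genes). Rrm2, a subunit of ribonucleotide reductase, Tyms, thymidylate synthase, and Chaf1b, a histone chaperone, were 2.65 ± 0.25, 2.34 ± 0.18 and 2.18 ± 0.12 above day 0 on day 5. Tyms and Chaf1b were also higher on day 1 (0.54 ± 0.18 and 0.61 ± 0.12, adjusted p = 0.0287 and 0.0014). Pold2, Rfc4 and Gmnn had the smallest day 5 differences, -0.44 ± 0.09, -0.25 ± 0.10 and -0.08 ± 0.08 (adjusted p = 8.1e-04, 0.0475 and 0.4491). The difference between the replication genes and the 51 was not tested. Their differences from day 0 are not given without either day 0 pool. Rrm2 stood at 8.92 on the left and 7.91 on the right of day 0, and Gmnn at 7.09 and 7.06.

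The courses of the 51 genes were close to each other. Across the 14 arrays, 46 of the 51 correlated with the mean of the other 50 at r over 0.95, and the exceptions were Aurka (0.661), Mybl2 (0.862), Spc24 (0.873), Ndc80 (0.933) and Smc4 (0.946). The arrays share days and animals, so these values describe the course only. Among the 19887 other genes the 8 closest to the mean of the list were Knstrn, Zwilch, Cip2a, Pclaf, Mastl, Parpbp, Cenpn and Aspm, at r from 0.992 to 0.996. Knstrn, a spindle protein also called kinastrin, stood at 7.89 and 7.44 on day 0, 7.65 and 7.69 on day 1, 9.32 and 9.48 on day 3, 9.65 and 9.79 on day 5, 9.50 and 9.82 on day 7, 9.13 and 9.11 on day 10 and 8.18 and 8.26 on day 14. It was 2.05 ± 0.14 higher on day 5 (adjusted p = 8.2e-08). Of the 50 closest genes, 26 belong to the 77 other mitosis genes and 1 to the DNA replication genes.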

How the data were processed

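Each of the 14 arrays measured one pool of plantaris RNA, and days were taken from the sample labels. The authors deposited 1 log2 signal for each probe set and array, with array medians between 7.908 and 7.967. Partek is named in the submitters' processing notes without a version, and the background correction, normalization and summarization are not given in the sources used here. Of 35557 probe sets, 21789 had 1 gene symbol in the platform annotation, 1621 several and 12147 none. Only those with 1 symbol were used, and of the 999 genes with several such probe sets the brightest on average was kept, leaving 19938 genes. No detection call was used, and no probe set was left out as dim.

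Days were compared with limma 3.58.1 in R 4.3.3, with 1 mean per day, no block, 14 contrasts, empirical Bayes moderation (7 residual and 4.95 prior degrees of freedom) and Benjamini-Hochberg adjustment over all genes at 0.05. The median standard error of a difference was 0.0974. Comparisons with day 0 share its 2 arrays. The sources do not say that the arrays of a day came from separate animals, so p values measure the spread between the 2 sides. The script was tested on simulated data. Array values were given for the 2 largest and the smallest day 5 difference of each role, for 7 genes chosen by name and for every gene lower than day 0 on any day. The 51 genes and the marker, replication and other mitosis lists were chosen with earlier results of these data known. Promoter letters were searched on both strands of RefSeq promoters with Python 3.11.15. Alternatives covered normalization, dim genes, probe set choice, array weights, the variance model, side as a block, the arrays fitted and each array left out. Young muscle was not analysed here.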

Additional observations from a re-analysis of the deposited data

How the results depend on the processing

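The counts of genes higher on days 3, 5, 7 and 10 and all rises between days 1 and 3 kept within 1.5 times under every alternative run. With side as a replicate block, where left and right share only a name across days, 50 genes were higher on day 3 instead of 51 and 17 lower between days 10 and 7 instead of 23, and no count moved by over 1.5 times. For day 1, 10 genes were lower after quantile normalization, and leaving out arrays gave 2 to 20 lower, 0 to 2 higher and medians of -0.27 to 0.01. For day 10 against day 0, leaving out arrays gave 0 to 1 lower. For day 14, 2 were lower after quantile normalization and 2 with equal array medians, and 25 to 39 were higher as arrays were left out. Between days 5 and 3, 1 was higher after quantile normalization, 1 with equal array medians, 4 with only those arrays, and 0 to 2 as arrays were left out. Between days 7 and 3, 2 were higher after quantile normalization, 9 with only those arrays, and 0 to 9 as arrays were left out. Between days 10 and 7, 12 were lower after quantile normalization, 40 with array weights, 13 with only those arrays, and 0 to 38 as arrays were left out. Between days 14 and 10, leaving out arrays gave 16 to 47. With array medians made equal, the medians against day 0 on days 1 to 14 were -0.20, 1.66, 1.94, 1.91, 1.28 and 0.44. Of the differences of single named genes, 1878 kept their direction and their side of the threshold, 47 lost and 19 gained a call, and 0 reversed. The causes were not tested. With 2 arrays per day, a single array can decide small differences, and signal over background was not measured here.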
